A study of Mus musculus with 2 samples.

Results

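The genes of mitochondrial fusion and fission were 10 of the 32285 genes counted in single bone marrow LSK cells of a mouse model of chronic myeloid leukemia (CML). They were listed by name and not by their values. The fusion side was made of Mfn1 and Mfn2 (outer membrane) and Opa1 (inner membrane), with Oma1 and Yme1l1, the proteases that cut Opa1, kept apart. The fission side was made of Dnm1l, Fis1, Mff, Mief1 and Mief2. All 10 were present in both libraries, and 7 of them reached a mean level of 10 CPM over both libraries. The level of a gene is given as CPM, its unique molecular identifiers (UMIs) summed over the cells of a group, per 1000000 UMIs of those cells.

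LSK cells are the Lin-Sca-1+c-Kit+ fraction of bone marrow, which holds stem cells and early progenitors. Both groups came from mice 8-10 weeks old with an SCLtTA/BCR-ABL transgene pair, in which tetracycline withdrawal turns on BCR-ABL in cells that use the SCL promoter, and per the study's methods BCR-ABL had been on for 2 weeks. One library was miR-142 WT CML. The other was miR-142 KO CML, from miR-142-/- mice with the same BCR-ABL transgene, so there was no library without leukemia. There was 1 library per group and the number of mice in each was not given, so no test between the groups was possible. Ratios are therefore differences between 2 libraries, and genotype, mouse and library cannot be told apart. The 95% intervals given here are exact Poisson or binomial ones and cover counting error only.

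Barcodes with at least 8000 UMIs and under 10% mitochondrial UMIs were taken as cells, which left 5363 WT and 5458 KO cells with a median of 19443 and 24181.5 UMIs. Only 4 cell barcodes were shared by both libraries. The host transcript of miR-142, Mir142hg, had 1260 UMIs in the WT and 20 in the KO library. Kit, Ly6a (Sca-1) and Cd34 were present in both (68.3 to 255 CPM), and markers of B cells, T cells, macrophages and stroma summed to at most 3.86 CPM each. The makeup of the libraries differed. The summed level of 4 primary granule genes (Elane, Mpo, Prtn3, Ctsg) was 5828.5 CPM in WT and 13350.5 CPM in KO, that of 8 stem cell genes was 136 and 52.6 CPM, and that of 4 antibody genes was 4934 and 8.46 CPM.

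Mitochondria form a network that is joined and cut continuously. Mitofusins join outer membranes and Opa1 joins inner membranes. Long Opa1 is cut to short forms by Yme1l1 and, under stress, by Oma1. The dynamin Dnm1l (Drp1) is drawn from the cytosol to the outer membrane by the receptors Mff, Mief2 (MiD49) and Mief1 (MiD51), and Fis1 sits in the same membrane. In blood stem cells mitofusin 2 has been tied to the upkeep of lymphoid potential. Much of the control in this system acts on proteins, by cleavage and phosphorylation, which RNA counts do not measure.

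The knockout removes both mature arms of miR-142. They are shown because a microRNA pairs with its targets mainly through its seed, bases 2 to 8, printed in capitals (RefSeq, GRCm38.p6, chr11:87756903-87756925 and chr11:87756867-87756887, both on the + strand).
miR-142a-3p: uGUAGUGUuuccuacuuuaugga
miR-142a-5p: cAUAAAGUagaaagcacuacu
The 3′ untranslated regions (UTRs) of the members (GENCODE M21, GRCm38, sense strand only, 1 transcript per gene) were searched for the letters that pair with bases 2 to 8 (ACACTAC for the 3p arm, ACTTTAT for the 5p arm) or with bases 2 to 7 only (CACTAC and CTTTAT). Every longer match also holds the shorter one. None of the 10 members held ACACTAC, against 6.61% of 7327 genes tested. CACTAC was in Mfn1 and Dnm1l, against 19.0% of genes. ACTTTAT was in Mfn1 alone among the members, against 16% of genes, and CTTTAT was in 6 members, against 39.9%. Mfn2, Oma1, Fis1 and Mff held none of these letters. Longer UTRs hold more matches by length alone, and those of the members ran from 220 bases (Fis1) to 3236 (Mief1), beside a median of 1066 over all genes searched. The 3 windows below carry the matches to the 3p arm and the longest match to the 5p arm, with the matched letters in capitals and 10 bases on each side.
Mfn1, 3p arm, chr3:32577612-32577637, + strand: aggatgtaacCACTACtaaacagttt
Dnm1l, 3p arm, chr16:16312387-16312412, - strand: agatgtttagCACTACacactttgta
Mfn1, 5p arm, chr3:32577180-32577206, + strand: gggaaatgttACTTTATgaaatgacct
The Mfn1 matches began at base 49 and base 481 of a UTR of 2098 bases, and the Dnm1l match at base 1585 of 1757. The letter opposite base 1 was not part of the search. It was an A for this Dnm1l match and for the Opa1 matches to the 5p arm, and for no other match of the members. A match is a description of letters and not a measured site. Both genes with a 3p match are set beside their levels below: Mfn1 read higher and Dnm1l slightly lower in the KO library.

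On the fusion side, Mfn2 had the largest ratio of the 10 members. Its level was 11.7 CPM (1617 UMIs, 11.1 to 12.3) in WT and 15.1 CPM (2393 UMIs, 14.5 to 15.7) in KO, a log2 ratio of 0.37 (0.28 to 0.46), or 1.29-fold. It was the 1 member past a log2 ratio of 0.32 either way, the size used as a call here. Of 7483 genes with 10 CPM or more, 7.60% were higher in KO by this size or more and 18.8% were lower by as much, and the 10 members include 3 below 10 CPM, so the 1 of 10 and these shares are not over like sets. Mfn2 stood at percentile 93.7 of the ratios of these genes, whose median was -0.08.

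Mfn1, the other mitofusin, was at 8.92 CPM (1232 UMIs, 8.42 to 9.43) in WT and 10.1 CPM (1599 UMIs, 9.60 to 10.6) in KO. The log2 ratio was 0.18 (0.07 to 0.29), which lay outside counting error and below the size of a call. Its size varied with how cells were chosen or weighed. With every cell thinned to 8000 UMIs it was 0.02, and without the cells rich in granule RNA it was 0.07. In cells with at least 2 times the minimum of 8000 UMIs it was 0.22, and with libraries scaled by the median ratio of all genes 0.26. The thinned value comes from a random draw with fewer UMIs. The counting error of these alternative values was not computed, so they may differ by counting alone. By cell cycle gate the Mfn1 ratio was 0.04 (-0.17 to 0.24) in cells passing neither gate, 0.26 (0.05 to 0.48) in S and 0.25 (0.08 to 0.41) in G2/M cells.

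Opa1, the inner membrane fusion GTPase, was at 26.4 CPM (3643 UMIs) in WT and 27.3 CPM (4326 UMIs) in KO. Its log2 ratio of 0.05 (-0.01 to 0.11) was within counting error. The proteases that cut Opa1 were both lower in KO. Oma1 read 23.0 CPM in the WT library against 19.7 CPM in KO (log2 ratio -0.22, -0.29 to -0.15), and Yme1l1 read 55.9 and 49.5 CPM (-0.18, -0.22 to -0.13). Neither ratio reached the size of a call. Oma1 stood at percentile 29.9 and Yme1l1 at percentile 35.2 of the ratios of all genes with 10 CPM or more.

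On the fission side, the membrane proteins Fis1 and Mff were higher in KO and the dynamin was not. Fis1 read 235 CPM (32530 UMIs) in WT and 272 CPM (43057 UMIs) in KO, a log2 ratio of 0.21 (0.19 to 0.23). Mff read 71.9 CPM (9935 UMIs) in WT and 84.3 CPM (13359 UMIs) in KO, a log2 ratio of 0.23 (0.19 to 0.27). Dnm1l read 33.0 CPM (4561 UMIs) and 31.6 CPM (5013 UMIs), a log2 ratio of -0.06 (-0.12 to -0.003). This small ratio turned to 0.02 when libraries were scaled by the median ratio of all genes. The receptors Mief1 and Mief2 were within counting error. Mief1 read 9.21 CPM in WT and 8.71 CPM in KO (-0.08, -0.19 to 0.03), and Mief2, the member with fewest counts, read 4.11 CPM (568 UMIs) and 4.34 CPM (687 UMIs) (0.08, -0.09 to 0.24).

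**Figure D1:**
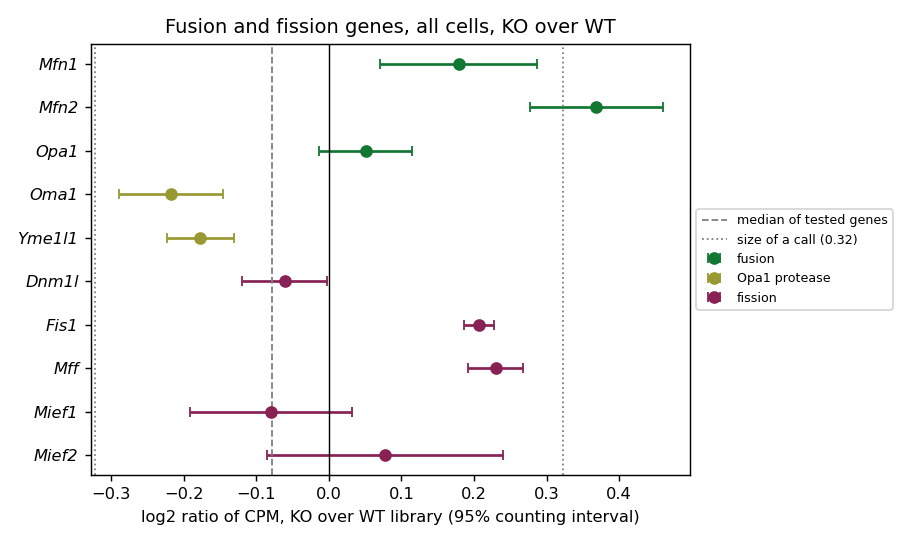
Each point is the log2 ratio of CPM, KO over WT, of 1 member over all cells, with its 95% counting interval as a bar and its side as color; the dashed line is the median of 7483 genes (-0.08) and the dotted lines are the size of a call, 0.32 either way. Mfn2 (0.37) is the one point past a dotted line, and Oma1 (-0.22) and Yme1l1 (-0.18) have the lowest ratios.

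Over the 10 members 6 ratios were above 0 and 4 below, with a median of 0.06. Of the 7 members at 10 CPM or more, 4 were above 0 and 3 below, with a median of 0.05. Of the 7483 genes at that level, 38.1% were above 0. Without that floor the median was 0.18 for the 3 fusion GTPases, -0.20 for the 2 proteases and 0.08 for the 5 fission genes. The sides overlapped, with the point values of Mff and Fis1 of the fission side above those of Mfn1 and Opa1 of the fusion side.

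The fusion share was the UMIs of Mfn1, Mfn2 and Opa1 as a percent of those and the UMIs of the 5 fission genes. It was 11.7% (11.5 to 12) in WT and 11.6% (11.3 to 11.8) in KO. The difference, KO minus WT, was -0.145 percentage points, within its counting error. Counts of different genes differ in capture, so the share is compared only between groups of cells. Fis1 supplied 32530 of the 48866 fission UMIs in WT. Without it the share became 28.4% in the WT and 28.9% in the KO library, a difference of 0.486 points with the opposite sign.

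How often a member is seen in a cell follows depth. Without thinning, 1 UMI or more of Mfn1 was seen in 19.4% of WT and 23.5% of KO cells, and all 10 members were seen in a larger share of KO cells, by 3.39 points on average. With every cell at 8000 UMIs the mean difference was 0.483 points. Mfn1 was then seen in 7.44% (6.75 to 8.17) and 7.59% (6.90 to 8.32) of cells, which did not differ beyond counting error. Mfn2 was seen in 7.59% (6.89 to 8.33) and 10.1% (9.27 to 10.9) of thinned cells, Fis1 in 84.1% and 88.8%, Mff in 45.0% and 48.6%, Oma1 in 16% and 14.2%, and Yme1l1 in 36.2% and 32.8%. These genes serve every cell with mitochondria, so no cell type in the libraries gives a background share. Barcodes of at most 100 UMIs were read in its place. Fis1 was at 276 CPM there in WT and 306 CPM in KO, above its level in cells, while the other 9 members were lower there than in cells. The part of free RNA in the Fis1 values was not tested beyond taking off this profile at 10% of the UMIs, after which its ratio was 0.21.

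Cells were next split by marker genes counted at 8000 UMIs per cell. An HSC gate (Hlf, Mecom, Procr and other stem cell genes) took 965 WT and 162 KO cells, a lymphoid-primed gate (Flt3, Dntt and others) 574 and 347, a megakaryocyte gate (Pf4, Itga2b and others) 292 and 281, and a mast/basophil gate 190 and 231. A granule gate took 461 WT cells (8.60%) and 2302 KO cells (42.2%), and cells that passed both the granule and the monocyte gate numbered 415 and 432. No gate took 2055 WT and 1141 KO cells, called ungated below. An innate lymphoid gate (8 and 131 cells), an antibody-secreting gate (36 and 0) and cells passing several gates (367 and 431) were left out of the counts of gates. The median depth was 49695 UMIs in granule-gate cells of the WT library and 37988 in those of KO, against 12904 and 12245 in the HSC gate. Gate sizes are measured facts and not results about the members.

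Mfn2 differed between the gates of each library. Its WT level was 14.6 CPM in the granule gate, 14.6 CPM in the granule-monocyte gate and 17.6 CPM in the mast/basophil gate, and 7.04 CPM in the lymphoid-primed gate. In KO these levels were 16.9, 17.2, 19.1 and 9.88 CPM. The megakaryocyte gate read 12.7 CPM in WT and 8.17 in KO, the HSC gate 10.1 and 10.5 CPM, and ungated cells 10.2 and 8.61 CPM. Within a library, granule-gate cells exceeded all other cells by 0.39 (0.21 to 0.56) in WT and 0.40 (0.28 to 0.52) in KO on the log2 scale. Of all genes, 15.2% in WT and 10.2% in KO were higher in the granule gate by the size of a call or more. Lymphoid-primed cells were below other cells by log2 ratios of -0.79 (-1.11 to -0.49) in WT and -0.63 (-1.05 to -0.24) in KO. Of all genes, 10.4% and 21.1% were lower there by the size of a call or more. Other gates differed between the libraries. Megakaryocyte-gate cells were at 0.12 (-0.24 to 0.47) against other cells in WT and at -0.90 (-1.43 to -0.42) in KO, and ungated cells at -0.28 (-0.44 to -0.13) and -0.90 (-1.13 to -0.68). In KO, 19.1% of all genes were lower in the megakaryocyte gate by the size of a call or more and 13.7% in ungated cells. The lowest Mfn2 level was thus in lymphoid-primed cells in WT and in megakaryocyte-gate cells in KO, where its interval overlapped those of the ungated, lymphoid-primed and HSC groups.

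The pooled Mfn2 ratio moved with this makeup. In the granule gate the KO over WT log2 ratio was 0.21 (0.04 to 0.38), in the granule-monocyte gate 0.24 (0.02 to 0.46) and in the lymphoid-primed gate 0.49 (-0.02 to 0.99). It was 0.06 (-0.63 to 0.69) in the HSC gate on 150 and 24 UMIs, 0.11 (-0.36 to 0.59) in the mast/basophil gate, and -0.25 (-0.50 to 0.01) in ungated cells. In the megakaryocyte gate it had the opposite sign, -0.64 (-1.27 to -0.03), on 71 WT and 35 KO UMIs. With both libraries weighted to the same makeup of gates the ratio was 0.10, and without both granule gates, an alternative added after the data were seen, it was 0.12.

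The levels of Mfn1 ran from 5.72 CPM (mast/basophil gate, 23 UMIs) to 11.6 CPM (megakaryocyte gate) in WT and from 8.23 CPM (ungated) to 11.1 CPM (granule-monocyte gate) in KO. Neighbours in these orders had overlapping intervals. Against other cells of the WT library Mfn1 was higher in the HSC gate by 0.40 (0.16 to 0.64) and in the megakaryocyte gate by 0.40 (0.02 to 0.76), and lower in the mast/basophil gate at -0.66 (-1.32 to -0.06). The same contrasts in KO were -0.14 (-0.83 to 0.48), -0.23 (-0.74 to 0.24) and 0.01 (-0.47 to 0.44). In WT 29.3% and 17.4% of all genes were higher by the size of a call or more in the first and second of these gates, and 48.7% lower in the third. Ungated KO cells were below other KO cells at -0.34 (-0.57 to -0.11). The KO over WT ratio was above 0 in 4 of 7 gates. It was outside counting error in the granule-monocyte gate, at 0.47 (0.18 to 0.75) on 198 and 213 UMIs, and in the mast/basophil gate, at 0.83 (0.06 to 1.62) on 23 and 43 UMIs. It was 0.22 (-0.00 to 0.44) in the granule gate and 0.20 (-0.29 to 0.68) in the lymphoid-primed gate. In the HSC gate it was -0.31 (-1.04 to 0.35) on 169 WT and 21 KO UMIs, and this interval holds the size of a call on both sides.

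**Figure D2:**
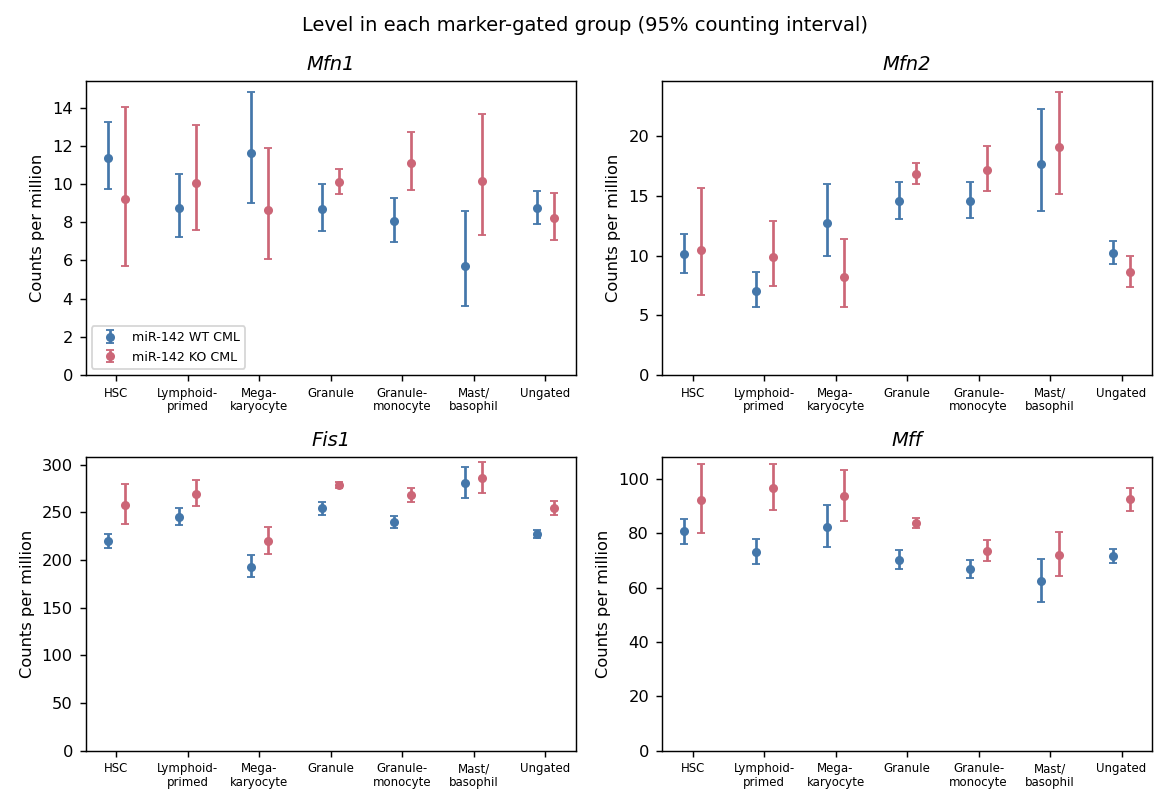
Levels (CPM, linear axis from 0) of Mfn1, Mfn2, Fis1 and Mff in 7 gate groups of the WT (blue) and KO (red) library, with 95% counting intervals. Fis1 and Mff of KO lie above WT in each of the 7 groups, while Mfn1 and Mfn2 of KO lie below WT in the megakaryocyte gate and in ungated cells, and Mfn1 also in the HSC gate.

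Fis1 and Mff were the members whose ratio held its sign in all 7 gates. Fis1 ran from 193 CPM (megakaryocyte) to 281 CPM (mast/basophil) in WT and from 220 to 286 CPM in the same gates of KO. Its KO over WT log2 ratios were 0.02 to 0.23, and 6 of 7 intervals lay above 0, the exception being the mast/basophil gate. Mff ratios were 0.14 to 0.40, with 4 of 7 intervals above 0 and the largest value in the lymphoid-primed gate, where Mff read 73.2 CPM in WT against 96.8 CPM in KO. The ungated cells gave a similar Mff ratio, 0.37 (0.29 to 0.45). Of all gene-by-gate ratios over the 7 gates, 41.8% were above 0. The share of all genes whose ratio held its sign in all 7 gates was not counted, and Fis1 and Mff had the most UMIs of the members.

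Yme1l1 was lower in KO in 6 of 7 gates, with 3 intervals below 0, and was level in the HSC gate at 59.3 and 59.5 CPM. Lower values were common, as 41.8% of all gene-by-gate ratios were above 0. Oma1 was lower in 5 of 7 gates, with 3 intervals below 0. Its ratio was -0.20 (-0.34 to -0.06) in the granule gate, -0.38 (-0.57 to -0.19) in the granule-monocyte gate and -0.59 (-1.15 to -0.04) in the mast/basophil gate, where it read 17.4 CPM in WT against 11.5 CPM in KO. Mast/basophil cells were also the group with least Oma1 within each library, at log2 ratios of -0.41 (-0.77 to -0.07) in WT and -0.79 (-1.23 to -0.38) in KO against other cells. Of all genes 48.7% and 45.6% were lower there by the size of a call or more, so a lower level is common in that gate.

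Opa1 and Dnm1l differed little between the libraries in any of the 7 gates. All 7 intervals of each held 0, with Opa1 ratios from -0.29 to 0.08 and Dnm1l ratios from -0.26 to 0.14. The intervals of the smaller gates still hold the size of a call. In cells passing several gates, outside the 7, Opa1 was higher in KO at 0.41 (0.12 to 0.71). Dnm1l was at -0.18 (-0.43 to 0.07) there. Mief1 was above 0 in 4 of 7 gates and within counting error in all 7. Mief2 was above 0 in 4 of 7, with 1 interval above 0, that of the ungated cells, with 3.59 CPM in WT against 5.40 CPM in KO (0.59, 0.23 to 0.95). Mief2 was higher in the megakaryocyte gate than in other cells by 0.85 (0.34 to 1.31) in WT and 0.86 (0.31 to 1.37) in KO, where 17.4% and 27.1% of all genes were higher by the size of a call or more. Fis1 was lower in that gate by similar amounts in both libraries, at -0.30 (-0.39 to -0.21) and -0.31 (-0.40 to -0.22).

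**Figure D3:**
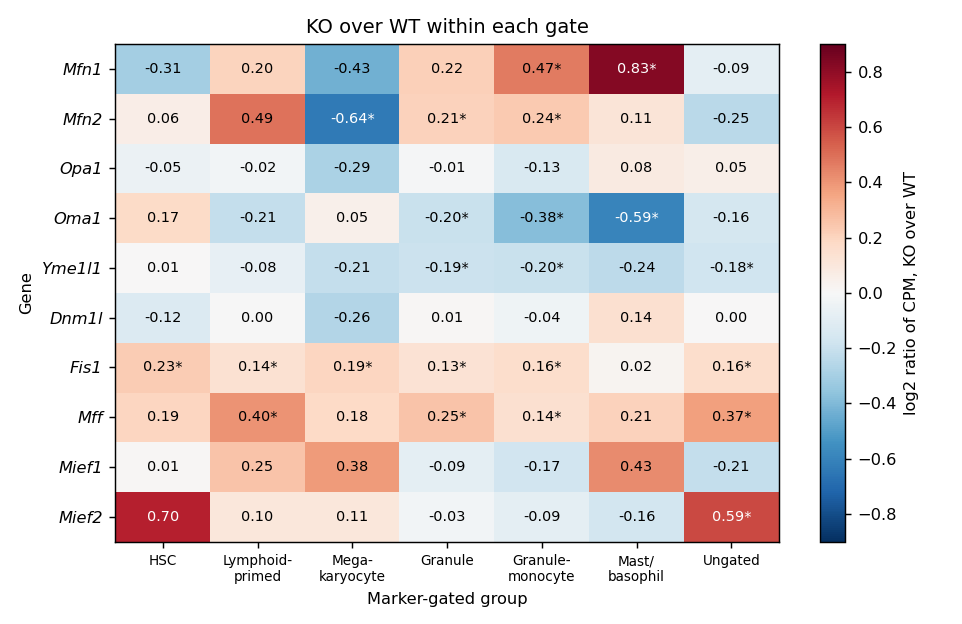
Log2 ratio of CPM, KO over WT, for 10 members (rows) in 7 gate groups (columns), with red for higher and blue for lower in KO and a star where the 95% counting interval leaves out 0. Of the 70 values 39 are above 0, and the rows of Fis1 and Mff are red throughout. The megakaryocyte gate is blue for Mfn1, Mfn2, Opa1, Yme1l1 and Dnm1l, with a star for Mfn2 alone among these.

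Of the 70 gate-by-gene ratios 39 were above 0, 15 intervals lay above 0 and 7 below. Of the 15 intervals, 6 were of Fis1 and 4 of Mff, the members with most UMIs. The share of such intervals over all genes was not counted. Past the size of a call there were 9 higher and 4 lower. Over all genes of 10 CPM or more in a gate and the 7 gates, 10.3% of ratios were higher by that much and 13.7% lower. The 70 ratios include members below 10 CPM, so these counts and shares are not over like sets. The fusion share varied more between gates than between the libraries as a whole. It was 13.5% (12.1 to 15) in WT and 9.66% (8.31 to 11.2) in KO in the megakaryocyte gate, where all 3 fusion genes read lower in KO. Dnm1l (-0.26) and Yme1l1 (-0.21) also read lower there, and among these genes the Mfn2 interval alone left out 0. The share was 12.2% and 10.3% in the HSC gate with overlapping intervals, 11.0% and 9.54% in ungated cells without overlap, and 12.2% and 11.9% in the granule gate. The mast/basophil gate was the one of these 7 with a higher share in KO, 10.4% and 11.3%, within counting error. In cells passing several gates, outside the 7, the share was also higher in KO. It was 10.3% (9.18 to 11.6) and 12.4% (11.4 to 13.4) there, with overlapping intervals. Weighted to one makeup of gates, the difference in share, KO minus WT, was -0.754 points.

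**Figure D4:**
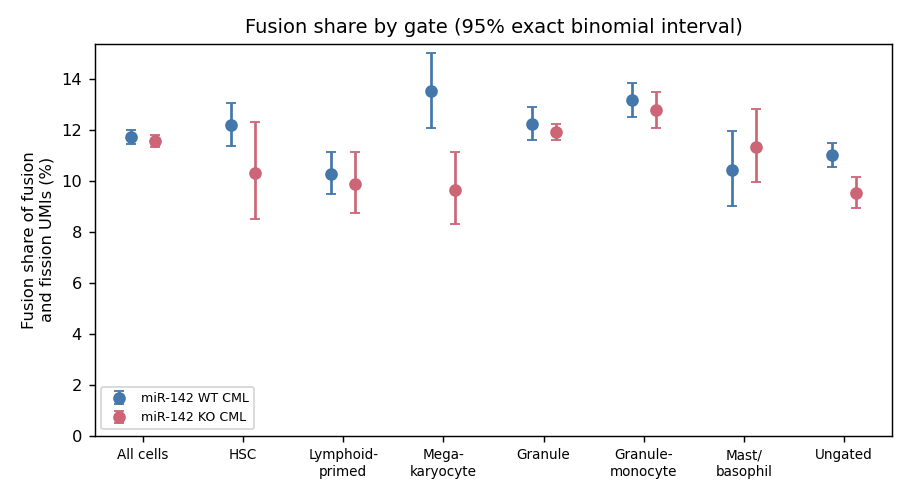
Fusion share (Mfn1, Mfn2 and Opa1 as a percent of fusion and fission UMIs, axis from 0) over all cells and in 7 gate groups, with exact 95% binomial intervals. The libraries meet over all cells (11.7% and 11.6%) and lie apart in the megakaryocyte gate (13.5% and 9.66%) and in ungated cells (11.0% and 9.54%).

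Over all cells, some members differed by cell cycle phase alike in both libraries. Cells were gated for G2/M (Top2a, Ccnb1, Cenpf and others) and S phase (Mcm genes, Pcna and others). Against cells in neither gate, G2/M cells had more Mfn2 by a log2 ratio of 0.30 (0.12 to 0.48) in WT and 0.28 (0.14 to 0.41) in KO, and more Opa1 by 0.28 (0.17 to 0.40) and 0.27 (0.17 to 0.38). Yme1l1 was higher by 0.17 and 0.14 and Dnm1l by 0.12 (0.01 to 0.22) and 0.13 (0.03 to 0.22). The median over all genes was 0.07 in WT and 0.04 in KO, which the Dnm1l intervals held. Mief2 was lower, at -0.36 (-0.66 to -0.06) and -0.51 (-0.78 to -0.25), and Fis1 differed by 0.02 and 0.05. The fusion share was 12.2% in WT and 12.4% in KO in G2/M cells and 10.8% in both libraries in cells of neither gate. Of all genes, 20% in WT and 9.65% in KO were higher in G2/M by the size of a call or more, and of the members Mief2 alone was past that size, downwards, where 12.3% and 11.5% of genes were. Mfn2 in KO over WT was 0.44 (0.26 to 0.62) in cells of neither gate, 0.30 (0.13 to 0.48) in S and 0.41 (0.28 to 0.55) in G2/M cells. Inside the granule gate it was 0.13 (-0.29 to 0.58), -0.02 (-0.32 to 0.30) and 0.42 (0.18 to 0.66), outside counting error in G2/M alone. There, Mfn2 read 14.0 CPM (10.4 to 18.4) in WT cells of neither phase gate and 14.0 CPM (12.1 to 16.2) in G2/M cells. In KO it read 15.4 (13.9 to 16.9) and 18.7 CPM (17.4 to 20.2). Opa1 read 23.1 and 29.1 CPM in WT and 24.7 and 30.5 CPM in KO. Mief2 read 3.85 and 3.41 CPM in WT and 4.07 and 3.44 CPM in KO. Phases were unevenly spread over gates, with G2/M cells at 47.7% of granule-gate and 26.8% of HSC-gate cells in WT. No test of the difference between phases was made.

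The other genes of mitochondrial shape were read from a list made by role. Of 58 genes found in the files, 47 reached 10 CPM (Slc25a46 stands in 2 roles and is counted once). The counts, medians and highest and lowest genes below are over those 47. Their ratios are pooled over all cells of libraries whose granule gate took 8.60% and 42.2% of cells. No single gene of this list was read inside gates, so the part of makeup in its ratio was not tested. Their median log2 ratio was -0.04, with 19 higher and 28 lower in KO. Past the size of a call there were 1 higher and 4 lower, 1 of 47 and 4 of 47 beside 7.60% and 18.8% of all genes. Of the genes that help fusion, Stoml2, an inner membrane scaffold, was highest (131 and 162 CPM, 0.31) and Miga1, a mitoguardin that binds mitofusins, lowest (12.2 and 9.07 CPM, -0.42). Of those that help fission, Mtfp1, an inner membrane fission protein, was highest (14.8 and 18.4 CPM, 0.32) and Mtfr2 lowest (37.2 and 24.3 CPM, -0.61). Pink1, the kinase that marks damaged mitochondria, had the lowest ratio of the 47, with 31.3 CPM in WT against 17.6 CPM in KO (-0.83, -0.90 to -0.76). Akap1, which anchors the kinase that phosphorylates Dnm1l, was the highest of the regulators (10.7 and 12.8 CPM, 0.25).

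Genes of cristae, the folds of the inner membrane, had a median of 0.13 with 6 of 8 higher in KO. Apoo (30.9 and 39.0 CPM, 0.33) was highest and its relative Apool (34.3 and 27.6 CPM, -0.32) lowest. Both transport genes tested were lower, Rhot1 at -0.12 and Trak1 at -0.19. Mitophagy receptors had a median of -0.11, from Fundc1 (37.0 and 27.3 CPM, -0.44) to Bnip3 (17.5 and 19.1 CPM, 0.12). The role of mitochondrial mass lists both regulators (such as Tfam, Nrf1 and Gabpa) and genes of mitochondrial content (Cs, Vdac1 and Tomm20). Of its genes that reached 10 CPM, Tomm20 was highest (487 and 553 CPM, 0.18) and Nrf1 lowest (27.0 and 22.6 CPM, -0.26), with a median of -0.14. Tfam (-0.22) and Gabpa (-0.18) were also lower, while Cs read -0.11 and Vdac1 0.13. Below 10 CPM, Ppargc1b (1200 and 1060 UMIs, log2 ratio -0.38) and Ppargc1a (82 and 24 UMIs, -1.97) of this role and Gdap1 (24 and 12 UMIs, -1.20) of the fission helpers read lower still.

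Likeness of pattern was described by Pearson's r of log2(CPM + 1) over 14 groups, 7 gates in 2 libraries, which share library, depth and neighbouring cells. For Mfn1 the 5 genes most alike were Ccdc32 (r = 0.80), Togaram1 (0.79), Vps50 (0.79), Phyh (0.74) and Mib1 (0.74). For Dnm1l they were Cnot1 (0.87), Ccdc50 (0.81), Nhlrc2 (0.80), Dvl2 (0.79) and Npat (0.78). Between members, r was highest for Oma1 with Yme1l1 (0.71) and Mff with Mief2 (0.70) and lowest for Fis1 with Yme1l1 (-0.69). These are highest values picked from many genes and are given without a test.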

How the data were processed

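Per the labels, single LSK cells were captured on a 10x Genomics Chromium with a 3′ kit, and the deposited counts are UMIs per gene and barcode, not normalized, that the authors made with Cell Ranger (6.1.2 in the submitters' processing notes, 4 in the file headers) on mm10, unfiltered for cells. The members and all gene lists were chosen with earlier results of these data known. Cells were barcodes with at least 8000 UMIs and under 10% mitochondrial UMIs (24 WT and 4 KO barcodes removed by the latter), a stricter floor than the 300 UMIs of the study's methods. Counts were summed per group of cells. No count model or test was used with 1 library per group. Ratios carry exact conditional intervals (scipy 1.17.1), checked on simulated data drawn with counting error only. That check cannot speak to variation between cells, mice or libraries.

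For gates, cells were thinned to 8000 UMIs and the UMIs of each marker list summed. The thresholds, set after the marker sums but not the members were seen, were 3 (HSC), 5 (lymphoid-primed), 6 (monocyte), 4 (megakaryocyte), 20 (mast/basophil), 8 (innate lymphoid), 100 (antibody-secreting), 40 (granule), 16 (G2/M) and 15 (S). An erythroid list (7 genes, 27.3 CPM in WT and 12.3 CPM in KO) made no gate, and a mature neutrophil list summed to 73.6 and 509 CPM. Gates needed 100 cells in each library. Cells passing several gates reached this number but were not counted as a gate. Scrublet (scanpy 1.11.5) marked 0.0186% and 0% of cells and had not worked, so doublets were kept, and an alternative left out the 230 WT and 238 KO top-scoring cells. Named genes were all 10 members, other shape genes past a log2 ratio of 0.32 either way, the highest and lowest of each role, and the 5 genes most like Mfn1 and Dnm1l. Protein sequences are not used here.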

Additional observations from a re-analysis of the deposited data

Results flagged for a closer look

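Mfn2 was picked out because its KO over WT log2 ratio lay above 0 beyond counting error in the granule gate (0.21) and in the granule-monocyte gate (0.24) and below 0 in the megakaryocyte gate (-0.64). With 1 library per group the difference between gates was not tested, and the megakaryocyte value rests on 71 WT and 35 KO UMIs. Fis1 was picked out because its level in barcodes of at most 100 UMIs, which hold free RNA and are not used as cells, was 1.17 times its level in cells of the WT library and 1.13 times in KO. The other 9 members had ratios from 0.537 to 0.972. The part of free RNA in the Fis1 levels was not tested.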

How the results depend on the processing

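The median ratio of the 10 members stayed between 0.04 and 0.14 under 11 alternatives. The fusion share difference (-0.145 points) was -0.754 weighted to one makeup of gates, -0.698 without both granule gates (added after seeing the data) and 0.486 without Fis1. The median of the other shape genes (-0.04) was 0.037 with size factors and 0.060 at 50 CPM or more. The mean difference in share of cells (0.483 points) was 3.39 without thinning. Dnm1l turned to 0.017 with size factors, which raise every ratio by the same amount. The cause of these shifts was not tested. Of the alternative values for whole comparisons, 28 stayed within the range set for the first value and 6 did not. That range was its counting error, or 1.5 times either way for the share of gate ratios above 0. For medians over genes it ran from the median of the lower bounds to that of the upper bounds (-0.05 to 0.17 for the members). That is not the counting error of a median. Of the alternative values for single members, 91 stayed, 18 moved and 1 turned. Mfn1 ranged from 0.02 to 0.26, Mfn2 from 0.10 to 0.45, Mief1 from -0.13 to 0.04 and Mief2 from 0.05 to 0.37. With gate thresholds doubled 18 of 30 ratios in 3 gates were above 0, and halved, 38 of 60 in 6 gates. No paired analysis was possible because there was 1 library per group. Depth limits most the HSC gate of KO, where Mfn1 had 21 UMIs and Mief2 16.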
